A study of Rattus norvegicus with 3 samples.

Results

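The pineal gland of the rat was compared at midnight and at midday, with 2 of the 3 libraries of the series, and the night and day columns of its expression table were set against each other gene by gene. Both libraries were made from poly(A) RNA of glands of adult Sprague-Dawley rats kept on a 14:10 light cycle, taken at zeitgeber time 7 (hours after lights on, midday) and at zeitgeber time 19 (midnight, in darkness). No genotype, drug or other treatment differed between them, and how many animals of which sex stand behind each library is not stated in the labels. The remaining library, a pool of 15 other tissues taken at zeitgeber time 7, serves below only as a reference level. Each group was 1 library, so no difference has a replicate check, no p-value was computed, and a change with time of day cannot be told apart from a difference between the animals or preparations of 2 libraries.

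The pineal gland makes melatonin, the hormone that signals night. In the rat, noradrenaline released by sympathetic nerves in darkness acts on adrenergic receptors of the pinealocyte and raises cyclic AMP. Protein kinase A then phosphorylates transcription factors that bind cAMP response elements, and transcription of Aanat, whose product acetylates serotonin, is switched on. Most pinealocyte genes are shared with retinal photoreceptors, to which these cells are related.

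The unit is FPKM, the fragments counted on a transcript per kilobase of its length, scaled to the number of fragments mapped in that library. Rows of 1 gene symbol were summed, and ratios are log2 ratios, night over day, of FPKM + 1, which shrinks the change of weakly expressed genes. Genes entered the comparison with an FPKM of 5 or more in either pineal library, which 6944 of 16629 genes and unnamed regions had. A gene that passed through 1 library alone tends to lie far from 0, so counts among compared genes are descriptions of that set.

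Promoter letters are shown first, since cAMP response elements are part of the background above. The 250 bases before an annotated start were taken from RefSeq (assembly GRCr8, not the rn4 build of the expression tables). They were searched on both strands for TGACGTCA, the palindromic cAMP response element, and for the 5 letters TGACG that make up one side of it, read as CGTCA on the opposite strand and contained in each TGACGTCA. Sequences run 5' to 3' along the gene, with these letters in capitals. The first set holds 5 genes higher by night and Isl2, which was lower. They were chosen after the search, to show windows that hold these letters, and higher ranked genes such as Dio2 and Irs2 were passed over, so the set says nothing of how common the letters are. Slc15a1 lies at chr15:104949345-104949594 (minus strand), Aanat at chr10:102326073-102326322 (plus strand), Dusp1 at chr10:17184603-17184852 (plus strand), Sik1 at chr20:9958647-9958896 (minus strand), Nr4a1 at chr7:134259888-134260137 (plus strand) and Isl2 at chr8:64819629-64819878 (plus strand).
Slc15a1: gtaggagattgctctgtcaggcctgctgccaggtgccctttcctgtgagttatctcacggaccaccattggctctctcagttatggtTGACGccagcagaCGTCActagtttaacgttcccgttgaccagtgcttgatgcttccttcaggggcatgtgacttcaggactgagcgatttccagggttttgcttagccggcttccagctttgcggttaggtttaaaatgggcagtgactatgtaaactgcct
Aanat: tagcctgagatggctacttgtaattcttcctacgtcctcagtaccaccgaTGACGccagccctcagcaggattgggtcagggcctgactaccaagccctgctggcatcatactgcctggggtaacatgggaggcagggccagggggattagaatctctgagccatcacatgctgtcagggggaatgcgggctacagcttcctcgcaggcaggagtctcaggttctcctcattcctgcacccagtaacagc
Dusp1: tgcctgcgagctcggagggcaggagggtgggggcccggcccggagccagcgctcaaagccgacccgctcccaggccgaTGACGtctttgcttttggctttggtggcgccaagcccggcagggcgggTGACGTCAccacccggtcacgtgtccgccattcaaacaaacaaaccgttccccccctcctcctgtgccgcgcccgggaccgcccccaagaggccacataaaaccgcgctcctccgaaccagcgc
Sik1: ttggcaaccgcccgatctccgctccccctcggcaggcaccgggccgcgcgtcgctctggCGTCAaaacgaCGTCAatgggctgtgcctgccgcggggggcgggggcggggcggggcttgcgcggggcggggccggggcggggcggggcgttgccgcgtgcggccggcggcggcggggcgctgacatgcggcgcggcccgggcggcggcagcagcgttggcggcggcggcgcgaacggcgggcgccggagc
Nr4a1: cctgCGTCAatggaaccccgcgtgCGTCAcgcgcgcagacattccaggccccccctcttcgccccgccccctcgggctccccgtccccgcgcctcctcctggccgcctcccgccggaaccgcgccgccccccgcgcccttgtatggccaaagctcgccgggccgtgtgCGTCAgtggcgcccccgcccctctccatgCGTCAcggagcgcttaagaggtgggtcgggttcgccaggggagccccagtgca
Isl2: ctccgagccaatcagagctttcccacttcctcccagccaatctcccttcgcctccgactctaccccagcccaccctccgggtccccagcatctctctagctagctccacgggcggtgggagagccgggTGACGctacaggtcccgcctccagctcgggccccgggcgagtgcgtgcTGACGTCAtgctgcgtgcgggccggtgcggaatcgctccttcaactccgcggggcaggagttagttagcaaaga
The whole TGACGTCA stands in Dusp1, 124 bases before the start, and also in Isl2, 74 bases before it. The Aanat window holds 1 TGACG, at 200 bases. Slc15a1 has TGACG at 163 bases and CGTCA at 150, Sik1 has CGTCA at 191 and 180, and Nr4a1 has it 4 times, at 246, 226, 82 and 53.

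Crem, whose short product ICER is a cAMP-inducible repressor made from a start inside the gene, has several windows in RefSeq. They show the gene's outer start and a pair of inner starts, at chr17:58933816-58934065 (plus strand), chr17:58984547-58984796 (plus strand) and chr17:58985240-58985489 (plus strand).
Crem outer start: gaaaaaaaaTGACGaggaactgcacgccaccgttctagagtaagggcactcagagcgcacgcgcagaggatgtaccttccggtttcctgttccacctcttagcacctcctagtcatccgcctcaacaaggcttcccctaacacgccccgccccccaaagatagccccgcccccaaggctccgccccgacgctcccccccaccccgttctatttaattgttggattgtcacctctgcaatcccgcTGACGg
Crem inner start A: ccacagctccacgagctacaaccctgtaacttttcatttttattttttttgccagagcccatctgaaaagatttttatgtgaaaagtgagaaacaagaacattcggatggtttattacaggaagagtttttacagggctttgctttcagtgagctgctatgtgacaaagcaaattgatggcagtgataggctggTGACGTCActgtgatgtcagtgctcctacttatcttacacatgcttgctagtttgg
Crem inner start B: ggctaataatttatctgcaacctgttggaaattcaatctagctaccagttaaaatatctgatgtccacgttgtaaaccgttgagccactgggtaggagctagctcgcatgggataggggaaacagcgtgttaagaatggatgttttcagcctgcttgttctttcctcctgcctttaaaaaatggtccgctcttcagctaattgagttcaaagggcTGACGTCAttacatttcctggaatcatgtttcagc
Both inner windows hold TGACGTCA, 56 and 35 bases before their starts, and the outer window holds only the 5 letters TGACG, at 241 and 6 bases. The inner starts lie 52786 and 53479 bases inside the gene from its outer end.

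Over the genes with a window in RefSeq, the first listed window of each, TGACGTCA occurred in 16 of 253 genes at least 2-fold higher by night (6.32%). Among genes at least 4-fold higher it occurred in 6 of 84 (7.14%). It stood in 3 of 111 genes at least 2-fold lower (2.70%), in 194 of 5740 compared genes (3.38%) and in 466 of all 27457 genes of the table (1.70%). Besides Dusp1, the 16 include Rcan1, Ppp1r15a, Btg2, Ier2, Slc25a25, Mapk10, Arl4d and Arl5b, whose values follow. The 5 letters were in 33.6% of higher, 17.1% of lower and 31.2% of compared genes. The variant TGCGTCA, searched with its reverse complement TGACGCA, was in 5.53%, 2.70% and 3.85%, and CACGTG, the E-box of clock activators, in 9.88%, 7.21% and 8.61%. With every listed window of a gene searched, TGACGTCA was in 17 higher, 3 lower and 198 compared genes. Letters in these windows are a description and not evidence of binding.

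By night 332 genes and regions (4.78% of those compared) were at least 2-fold higher and 151 (2.17%) at least 2-fold lower, together 6.96%. These shares are the reference for each family count below. Family members that passed the filter through 1 library alone tend to raise such counts. The other 93.0% did not reach that difference. The median log2 ratio was -0.08, and the 5th and 95th percentiles were -0.77 and 0.97. At 4-fold, the higher genes numbered 119 (1.71%) and the lower ones 11 (0.158%). An 8-fold difference was reached by 47 (0.677%) on the night side and by 0 on the day side. The genes that were higher took 1.96% of all FPKM by day and 8.49% by night, and those that were lower 1.94% and 0.709%. Of the 332, 35 reached 100 FPKM by night but 3 by day.

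**Figure D1:**
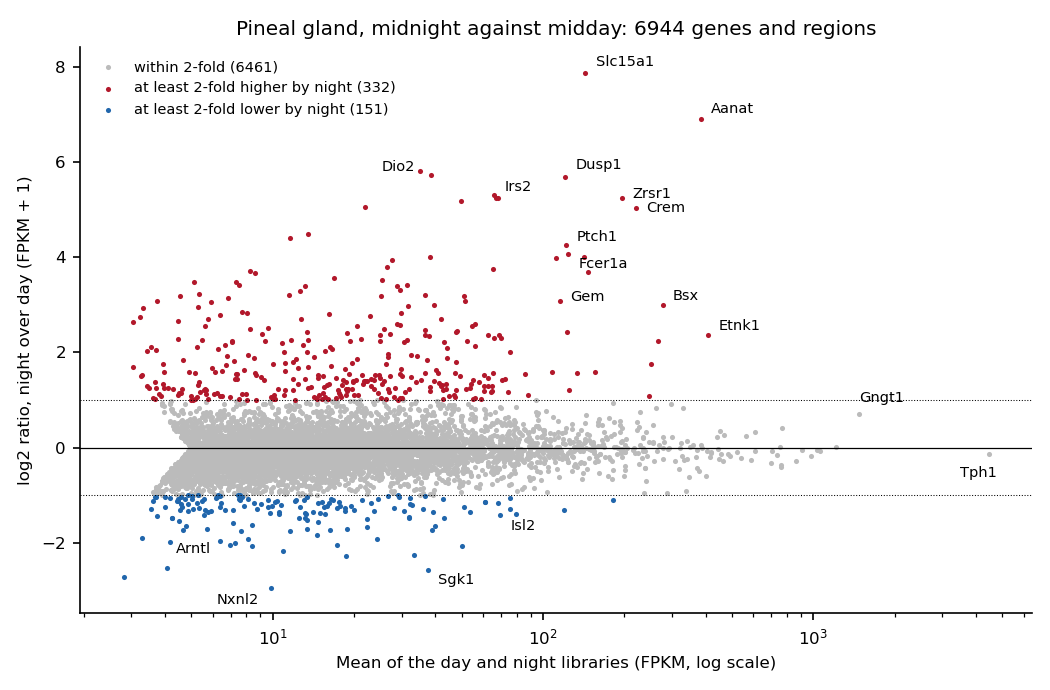
Each point is 1 of 6944 genes or unnamed regions, with its mean FPKM over the 2 pineal libraries on the x axis (log scale) and its log2 ratio, night over day, of FPKM + 1 on the y axis. Dotted lines mark 2-fold. The 332 points above the upper line reach 7.88, at Slc15a1, and the 151 below the lower line reach -2.95, at Nxnl2.

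Slc15a1 and Crem could be followed by transcript entry. Slc15a1 encodes a peptide transporter, and its short entry (NM_001079838, chr15:106550096-106552536, rn4) stood at 0.156 FPKM by day and 286 by night. The full-length entry (NM_057121, chr15:106550096-106592594) stood at 0.0642 and 0.987, and at 4.19 in the mixed tissues, where the short entry was at 0.000616. The night signal was thus assigned almost wholly to the short form, and the mixed-tissue signal to the long one. The RefSeq window printed above is the single one listed for Slc15a1 and starts 41972 bases inside the gene from its outer 5' end. Whether that is the start of the short entry was not tested, since the entries and the window are on different builds. For Crem, the entry that begins inside the gene (NM_017334, chr17:62822636-62836430) stood at 7.56 by day and 289 by night, and the entry that spans the gene (NM_001110860, chr17:62770633-62837670) at 4.51 and 139. Both forms were higher by night (log2 ratios 5.08 and 4.67). The split between forms that share exons is the estimate in the deposited table, which was not checked against reads here.

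Within the melatonin pathway, Aanat (chr10:106709371-106713683) stood at 5.34 FPKM by day and 762 by night, a 143-fold difference, and at 0.134 in the mixed tissues. It was the 1 member of 12 compared that was past 2-fold. Enzymes of the tetrahydrobiopterin cofactor lay on the day side without reaching 2-fold, among them Gch1, which opens that synthesis (366 and 270, log2 ratio -0.44), and Pcbd1, which recycles it (210 and 184). Tph1, the first enzyme of the path, had the largest loss in FPKM of any gene (4665 to 4245), which was a log2 ratio of -0.14.

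Receptors came first in the order of the signal. Of 34 amine receptor genes in the table, 3 reached the level for comparison. Drd4, a dopamine receptor that lowers cyclic AMP, stood at 6.36 by day and 57.1 by night (log2 ratio 2.98). The adrenergic receptors Adrb1 (84.7 and 133) and Adra1b (33.9 and 60.1) lay on the night side within 2-fold. Peptide and nucleotide receptors had 6 compared members, of which 0 were higher and Sstr3, a somatostatin receptor (7.63 and 0.490), and P2ry4, a nucleotide receptor (12.2 and 2.29), were lower. Chrnb4, an abundant nicotinic subunit, lay within 2-fold (211 and 153).

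Downstream of the receptors, G protein subunits were level while their regulators stood apart in both directions. All 19 compared G protein subunits were within 2-fold (median log2 ratio 0.02, from -0.86 to 0.70). Of 11 Rgs family genes and partners, which shorten G protein signals, 3 were higher and 3 lower. The shares over all compared genes were 4.78% and 2.17%. Rgs2 stood at 8.13 by day and 122 by night, Rgs7bp at 11.8 and 36.1 and Rgs17 at 6.64 and 18.2. Rgs20 went the other way (28.5 and 6.14), as did Rgs9bp, the membrane anchor of the photoreceptor Rgs9 complex (13.4 and 2.81), and Rgs4 (17.0 and 7.4). Rgs9 itself lay within 2-fold (82.1 and 72.6).

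Cyclic nucleotide enzymes were counted as those that make the messenger and those that break it down. Over all compared genes 4.78% were higher and 2.17% lower. Of 6 compared cyclases, which make cAMP or cGMP, 0 were higher and 3 lower: Adcy1 (29.3 by day and 8.24 by night), the retinal guanylate cyclase Gucy2e (19.9 and 6.48) and Gucy1a3, a subunit of the nitric oxide receptor (47.6 and 16.5). Its partner subunit Gucy1b3 lay within 2-fold (11.3 and 10.3), and Adcy2, the most abundant cyclase, was on the night side within 2-fold (52.0 and 70.8). Of 11 compared phosphodiesterases, which break the messenger down, 5 were higher, 0 lower and 6 within 2-fold (median 0.60, from -0.46 to 3.51). Pde10a had the highest ratio (3.25 and 47.6), followed by Pde4b (9.29 and 93.1), Pde4d (2.63 and 22.7), Pde8b (4.09 and 21.9) and Pde7b (1.25 and 6.59). All of these but Pde4b passed the filter through the night library alone, which raises the count and median of the phosphodiesterases. The whole Pde4d signal sat in 1 of its 5 entries, NM_017032, placed on an unordered contig of chromosome 18 in rn4. Pde6c, the cone phosphodiesterase and the most abundant of the family, lay within 2-fold (156 and 229).

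None of the 15 compared protein kinase A subunits, inhibitors and anchors reached 2-fold (median -0.29). Prkaca, the main catalytic subunit, stood at 69.6 by day and 84.8 by night, and Prkar2b, a regulatory subunit, at 35.9 and 54.4. Kinases of the AMPK family had 3 of 12 compared members higher and 0 lower: Sik1, a cAMP-inducible kinase that restrains CREB coactivators (1.72 and 97.8), Stk11, also called LKB1, its upstream activator (11.9 and 34.2), and Snrk (14.1 and 36.8). Among calcium-linked kinases Camk1g was higher (15.1 and 93.9), and Rcan1, an inhibitor of the calcium-dependent phosphatase calcineurin, stood at 20.3 and 273. In the MAP kinase cascade 2 of 24 were higher, Mapk10 (2.70 and 10.3) and Mapk6 (38.6 and 107), while Mapk3 (23.7 and 21.5), an ERK gene, lay within 2-fold.

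Of 9 compared dual specificity phosphatases, several of which end MAP kinase signals, 3 were higher and 0 lower. Dusp1 stood at 3.61 by day and 237 by night, 65.7-fold apart, Dusp8 at 9.43 and 26.9 and Dusp5 at 7.69 and 16.5, and the other 6 lay within 2-fold on either side of 0, down to a log2 ratio of -0.92. Errfi1, a feedback inhibitor of the EGF receptor, was higher as well (4.17 and 53.5). Protein tyrosine phosphatases had 0 of 14 higher and 1 lower, Ptpn21 (14.2 and 2.61). Of 44 serine/threonine phosphatase subunits 2 were higher, Ppp1r15a, which restores translation after stress (5.50 and 27.1), and Ppp2r1b (6.37 and 15.9). Inositol phospholipid enzymes and receptors had 2 of 43 higher, the kinase Pik3c2a (5.41 and 19.4) and the calcium release channel Itpr1 (21.5 and 57.9), and 1 lower, Plcg2 (10.6 and 3.69).

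Growth factor pathway genes had 10 of 97 compared members higher (10.3%) and 3 lower (3.09%), against 4.78% and 2.17% over all compared genes. Several of the members past 2-fold, among them Irs2 and Hhip, passed the filter through 1 library alone, which raises the shares of this group. Single pathways had few compared members, so their counts are not ranked against each other. The Hedgehog pathway had 6 compared members of 17 found, with 3 higher and 1 lower. Ptch1, the receptor that holds the pathway off, stood at 11.2 by day and 233 by night (chr17:7088234-7142457), Hhip, a decoy of the ligand, at 1.45 and 25, and the transcription factor Gli2 at 1.64 and 5.32. Sufu, which holds Gli proteins back, was lower (6.80 and 2.40). Hhip, Gli2 and Sufu each passed the filter through 1 library alone, which raises the count of Hedgehog genes past 2-fold. Gli1, a standard readout of the pathway, stood at 0.133 and 0.159, and the transducer Smo at 3.38 and 2.59, both under the level for comparison. Ptch1 and Hhip were higher by night while Gli1 stayed near 0, and whether the pathway was active was not tested.

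Insulin and IGF signalling had 2 of 23 compared members higher. Irs2, an adaptor of the insulin receptor, stood at 2.30 by day and 130 by night, and its relative Irs1 at 66.8 and 67.0, so the more abundant adaptor by night was Irs2 and by day Irs1. Igf1r, the IGF receptor, stood at 5.26 and 35.7. The TGF-beta and BMP list had 4 of 28 higher, the ligands Gdf15 (7.43 and 42.7) and Gdf7 (10.2 and 43.2), the BMP target Id1 (16.4 and 40.5) and the coreceptor Tgfbr3 (2.48 and 6.47), and 1 lower, the inhibin subunit Inhbb (8.42 and 2.81). Pmepa1, an inhibitor of TGF-beta signalling outside that list, stood at 14.2 and 80.9. In the Wnt list 1 of 16 was higher, the receptor Fzd4 (45.3 and 103), and all 12 compared Notch genes lay within 2-fold.

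Of 59 fast-responding genes found, those known to be induced soon after a stimulus, 33 were compared. Among these 20 were higher and 2 lower, where the shares over all compared genes were 4.78% and 2.17%. Their median log2 ratio was 1.28, against -0.08 over all compared genes. Several members under 5 FPKM by day passed the filter through the night library alone, which raises this count and median. The list was also chosen with earlier results of these data known. Beside those named above, Gem, a small GTPase that lowers calcium currents, stood at 23.7 by day and 207 by night, Gadd45b, a stress sensor, at 1.11 and 14.2, Csrnp1 at 1.47 and 7.82, and Ier2 at 8.62 and 22.3. The nuclear receptor Nr4a1 stood at 3.58 and 72.6 and its relative Nr4a3 at 0.312 and 16.1, nearly all of it in 1 of its entries, NM_031628 (0.278 and 15.9). The members on the other side were Sgk1 (64.8 and 10.1) and Gadd45a (13.2 and 3.60), a relative of Gadd45b that so went the opposite way. Fos, the best known gene of this class, stood at 10.3 and 21.3, with a log2 ratio of 0.99 just inside 2-fold, and Jun at 13.6 and 7.99.

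Transcription factor families were unequal, where the shares over all compared genes were 4.78% higher and 2.17% lower. Several members past 2-fold, among them Cebpb, Lmo1 and Pou6f1, passed the filter through the night library alone, which raises the counts. Among bZIP factors 7 of 28 were higher and 0 lower (median 0.47). After Crem came Junb (5.56 by day and 25.8 by night), the stress factors Ddit3 (30.7 and 90.0) and Xbp1 (30.3 and 78.5), Cebpb (2.01 and 6.17), Dbp (39.2 and 89.8) and Mafg (12.4 and 27.7), while Atf4, upstream of Ddit3, was nearly level (69.2 and 78.0). Homeobox and LIM-only genes had 6 of 27 higher and 2 lower. Lmo1, a LIM-only cofactor, stood at 0.457 and 14.6, Bsx at 60.6 and 493, Prox1, a factor of neuronal and lens differentiation, at 5.30 and 32.4, Zhx1 at 15.3 and 44.9, Pou6f1 at 4.29 and 13.9, and Zeb2 at 12.9 and 33.4. The lower ones were Isl2 (101 and 37.2) and the chromatin organizer Satb1 (10.4 and 4.70). Crx (237 and 421), Otx2 (189 and 337) and Lhx4 (207 and 389), which define pineal and photoreceptor identity, all lay on the night side just within 2-fold.

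Basic helix-loop-helix factors had 3 of 28 higher, namely Neurog1, a neuronal determination factor listed at 0 by day and 6.63 by night, Id1 and Bhlhe40, and 1 lower, Arntl. The most abundant, Neurod4 (193 and 260) and Neurod1 (138 and 147), lay within 2-fold. Numbered zinc finger genes had 6 of 94 higher and 4 lower, led by Znf23 (12.7 and 37.0) and Zfp143 (9.34 and 2.13), and their median was -0.16. Of 17 compared clock genes 6 were higher and 1 lower, where the shares over all compared genes were 4.78% and 2.17%. Of the period and cryptochrome genes, which repress the clock, Cry2 was the most abundant by night (63.9, against 11.8 by day), above Per1 (40.6), Per3 (28.7) and Per2 (6.38), while Nr1d1, a repressor of Arntl, lay within 2-fold (31.2 and 41.8).

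**Figure D2:**
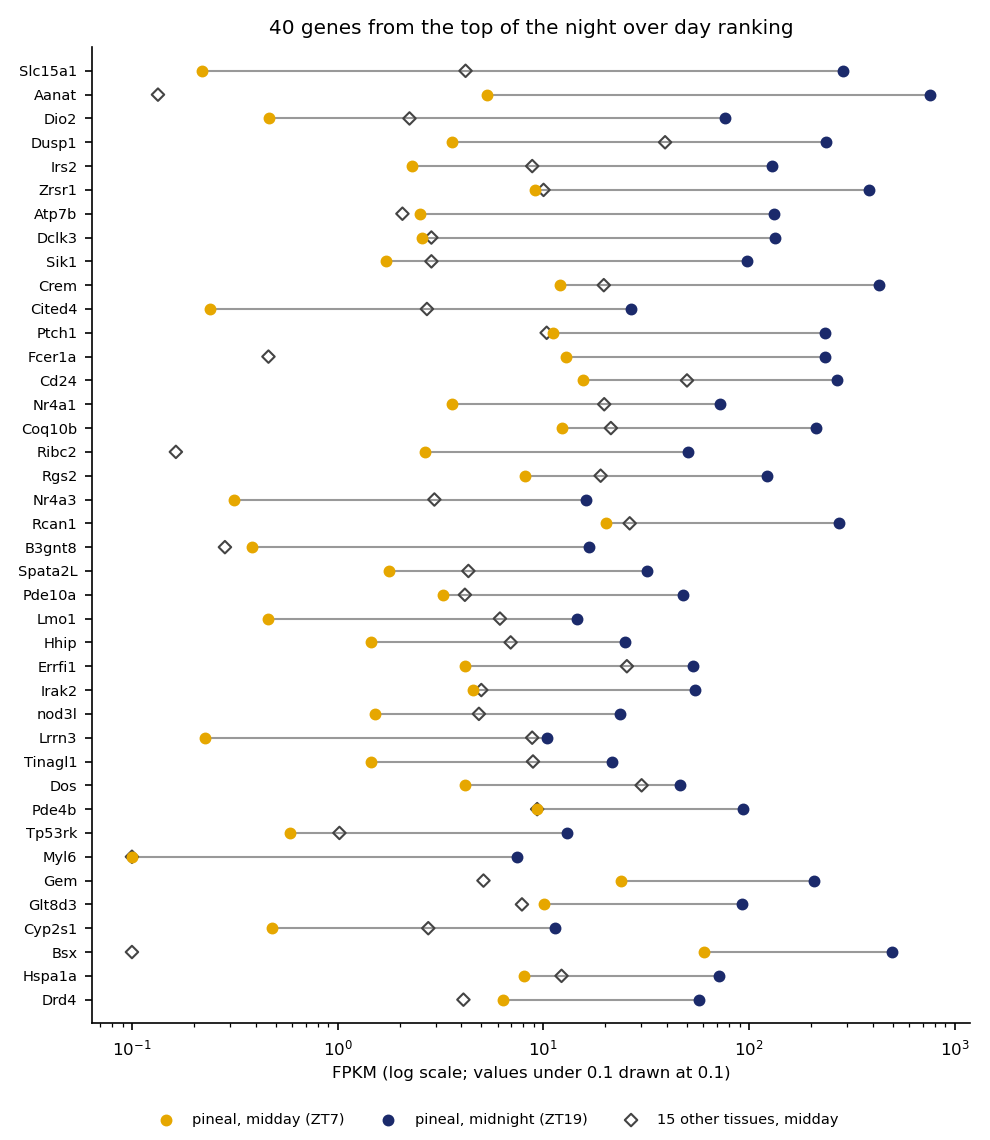
FPKM on a log x axis for 40 named genes from the top of the night over day ranking: filled yellow points are the pineal day library, dark blue points the pineal night library and open diamonds the pool of 15 other tissues. Each gene is 1 library per point; Aanat reaches 762 by night from 5.34 by day, and Slc15a1, Dio2, Cited4 and Nr4a3 start below 1 FPKM by day.

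Coregulators and chromatin modifiers had 3 of 99 compared members higher and 4 lower, where the shares over all compared genes were 4.78% and 2.17%. Cited4, a CBP and p300 interactor, stood at 0.239 by day and 26.8 by night, Arid5b at 1.96 and 7.85 and Brd3 at 10.9 and 27.0. The lower ones were the corepressor Tle1 (12.3 and 2.92), the histone demethylase Kdm4c (25.6 and 6.98), Arid3b (12.9 and 4.69) and the deacetylase Hdac5 (51.6 and 20.6). All 8 compared histone genes lay within 2-fold. Splicing factors had 3 of 85 higher, of which Zrsr1 (9.16 and 384) and Mbnl2, a regulator of alternative splicing (37.3 and 207), were far beyond Hnrnph2 (36.0 and 74.2), and Snrpa was lower (11.4 and 4.88). Among mRNA decay factors the related genes Tob1 and Tob2 stood on opposite sides, Tob1 at 21.5 by day and 111 by night and Tob2 at 32.2 and 13.8. Btg2 (8.28 and 31.0) and the deadenylase Ccrn4l, also called nocturnin (3.81 and 13.3), were higher and Edc4, a decapping scaffold, lower (28.9 and 11).

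Protein folding genes moved in part. Of 80 compared heat shock proteins and co-chaperones 9 were higher and 2 lower, where the shares over all compared genes were 4.78% and 2.17%. Hspa5, the chaperone of the endoplasmic reticulum also called BiP, stood at 77.8 by day and 234 by night, Fkbp5, a glucocorticoid-induced co-chaperone, at 20.6 and 74.8, Hsph1 at 53.5 and 162, and Dnajb1 at 20.2 and 92.1. Hsf1, the factor that induces heat shock genes, was lower (36.1 and 17.3). In the unfolded protein response list 4 of 33 were higher, Hspa5, Ddit3, Xbp1 and Ppp1r15a, while Calr (244 and 267), Pdia3 (145 and 156), Canx (114 and 123) and Hsp90b1 (150 and 187) lay within 2-fold. Dnaja1 and Hsp90aa1 have more than 2 copies in RefSeq, which makes their values uncertain.

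Most members of the housekeeping families lay within 2-fold. All 43 compared proteasome subunits (median -0.12), 24 aminoacyl-tRNA synthetases (median -0.15) and 33 RNA helicases (median -0.17) lay within 2-fold. The respiratory chain and ATP synthase had 1 of 80 past 2-fold, Cox7a2, and the ribosomal proteins 1 of 26, Rpl37a, both genes with several copies. Mitochondrial ribosomal proteins had 0 of 61 higher and 2 lower, Mrpl49 (72.6 by day and 29.9 by night) and Mrps27 (22.6 and 9.11), with a median of -0.26. Of 195 compared ubiquitin pathway genes 5 were higher, led by Kctd3 (17.5 and 87.3), and 5 lower, led by Otud7b (18.9 and 6.14). Autophagy and lysosome genes had 1 of 65 in each direction, and Lamp3 was the lower one (15.6 and 5.49).

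Metabolic genes had 13 of 325 compared members higher (4.0%) and 5 lower (1.54%), close to the 4.78% and 2.17% over all compared genes. Dio2, which makes the active thyroid hormone, stood at 0.464 by day and 76.8 by night. Of 37 amino acid and one-carbon enzymes 5 were higher and 0 lower, among them Mat2a, which makes S-adenosylmethionine (6.6 and 53.3), the mitochondrial folate enzyme Mthfd2 (3.32 and 12.3), Amd1 of polyamine synthesis (23.4 and 71.0, a gene with several copies) and Asl of the urea cycle (21.9 and 54.6). Etnk1, ethanolamine kinase of phospholipid synthesis, had the third largest gain in FPKM of all genes, from 132 to 687. Dgat2, the last enzyme of triglyceride synthesis, stood at 4.0 and 23, Cyp2s1, a cytochrome P450, at 0.482 and 11.4, Srxn1, which repairs peroxiredoxins, at 5.39 and 23, and Coq10b, a coenzyme Q binding protein, at 12.3 and 211. Lower by night were Cpt1a, the gate of fatty acid entry into mitochondria (34.6 and 10.2), the fatty acid activating enzyme Acsl1 (102 and 48.5) and the carnitine carrier Slc25a20 (45.4 and 19.2). Hk2, hexokinase, was the 1 of 44 glycolytic and citric acid cycle genes past 2-fold, lower by night (20.8 and 8.71).

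Of 131 compared solute carriers 10 were higher and 4 lower. After Slc15a1 came Slc17a6, a vesicular glutamate transporter (22.8 by day and 116 by night), which by day stood far under its relative Slc17a7 (582, and 499 by night). Others were the sulfate transporter Slc26a2 (8.37 and 28.6), the mitochondrial carrier Slc25a25 (19.1 and 61.1), the thiamine transporter Slc19a2 (20.2 and 61.5), the chloride cotransporter Slc12a2 (16.7 and 48.5), the lactate and monocarboxylate transporter Slc16a1 (10.7 and 30.1) and the ascorbate transporter Slc23a2 (24.4 and 63.4). Slc6a13, a GABA transporter, was lower (18.5 and 4.74), as were the nucleoside transporter Slc29a1 (6.07 and 1.96) and Slco4a1 (27.8 and 11.2). Among ABC transporters Abca1, which exports cholesterol, was higher (10.2 and 50.8). Of 16 ion-pumping ATPases the copper pump Atp7b (2.52 and 132) and the calcium pump Atp2b1 (11.2 and 24.5) were higher.

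Most ion channel genes lay within 2-fold, namely 11 of 14 potassium channels and 35 of 37 calcium, sodium, chloride and related channels. Over all compared genes and regions the share was 93.0%. Of 14 compared potassium channel genes Kcnab2, an auxiliary subunit, was higher (74.8 by day and 175 by night), and Kcne2 (94.9 and 41.6) and Kcnj11 (7.41 and 3.18) were lower. Among 37 calcium, sodium, chloride and related channels 2 were higher, the T-type calcium channel Cacna1g (8.68 and 23.1) and the chloride transporter Clcn3 (29.5 and 64.2). Calhm1 (7.75 and 51.3) and Calhm2 (8.05 and 46.3), large-pore channels outside these lists, were both higher, and Calhm1 was listed at 0 in the mixed tissues.

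The secretory apparatus was level apart from single genes. Of 61 vesicle release and synapse genes Syt4, a synaptotagmin, was higher (15.2 by day and 96.9 by night) and Cabp4, a regulator of photoreceptor calcium channels, lower (38.9 and 9.59). All 12 compared secretory granule genes lay within 2-fold, with Chga at 421 and 510, Scg2 at 137 and 212 and Scg3 at 149 and 217. Nptx1, a secreted pentraxin that gathers glutamate receptors, stood at 91.9 and 439.

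Small GTPases and their regulators had 9 of 104 compared members higher and 1 lower. After Gem, the Rac regulator Arhgap24 stood at 113 by day and 387 by night, Arhgef3 at 16.3 and 72.1, the endosomal GTPase Rhob at 43.3 and 129, Arl5b at 3.24 and 18.4 and Arl4d at 13.6 and 40.5. The one that was lower, Ralgds, has many copies in RefSeq. Microtubule genes had 4 of 51 higher, led by the doublecortin-like kinases Dclk3 (2.56 and 133) and Dclk1 (13.7 and 54.4). Actin and myosin genes had 2 lower, Cfl2, a cofilin (115 and 43.0), and Lmod1 (49.3 and 23.8), and 1 higher, Myl6, which has several copies and was listed at 0 by day.

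Junction and adhesion genes had 4 of 39 higher and 1 lower. Among them the desmosomal cadherin Dsc2 stood at 0.799 by day and 10.8 by night, the synaptic adhesion protein Lrrtm2 at 0.936 and 10.3 and Cldn12 at 10.9 and 24.5, and Slitrk6 was lower (7.19 and 1.79). Cd24, a small surface glycoprotein, stood at 15.6 and 268. Collagens, laminins, integrins and matrix genes had 1 of 39 higher, Timp3 (23 and 53.5), 1 lower, Col5a3 (13.4 and 5.75), and a median of -0.35. Markers of fibroblasts and meninges, 6 of 6 found, summed to 242 FPKM by day and 180 by night with 0 of 6 past 2-fold, and their part in the matrix result was not tested.

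**Figure D3:**
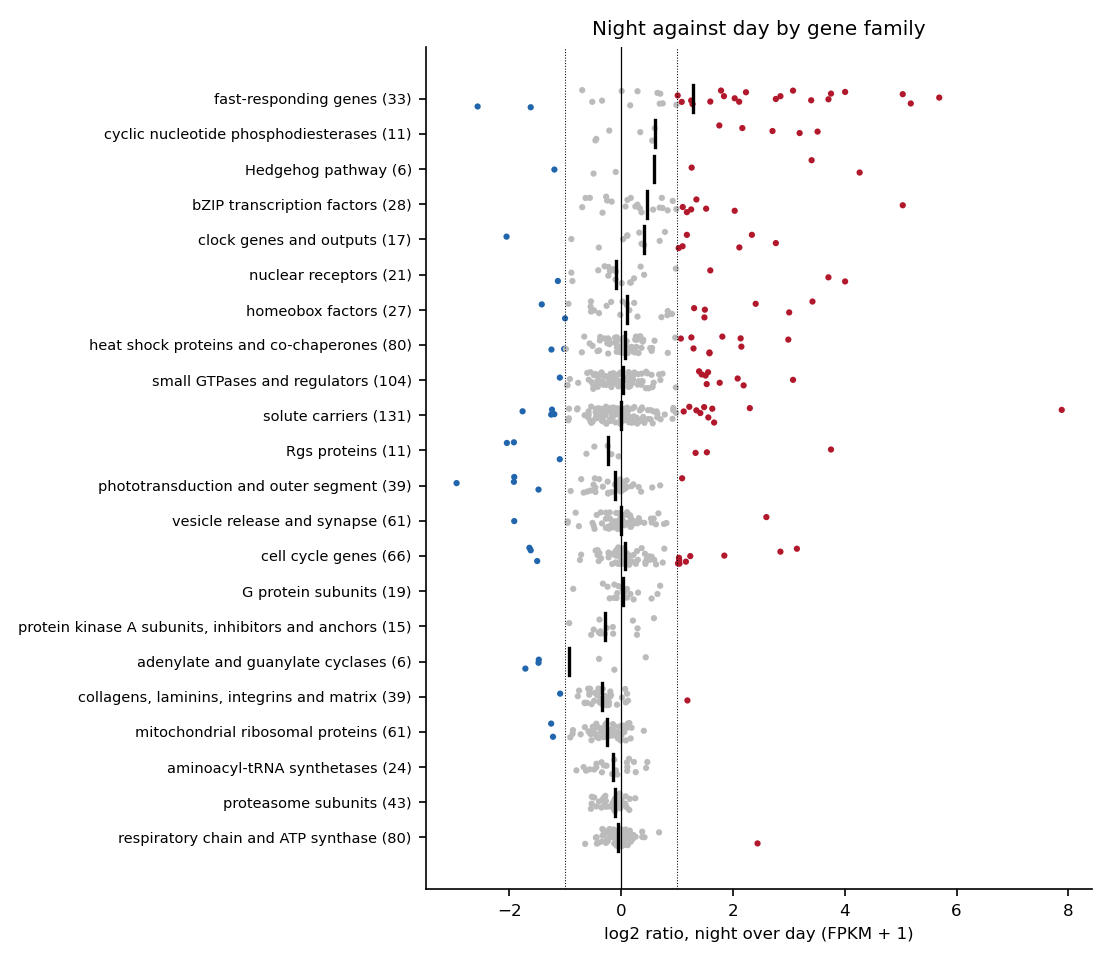
Log2 ratios, night over day, of FPKM + 1 for the compared members of 22 of the 74 gene families, each point 1 gene, with the number compared in parentheses; red points are at least 2-fold higher, blue points at least 2-fold lower and black bars family medians. Fast-responding genes have their median at 1.28, while proteasome subunits all lie within 2-fold.

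Immune genes past 2-fold were isolated members of level families. Fcer1a, the alpha chain of the IgE receptor, stood at 12.9 by day and 235 by night (chr13:89429982-89436507), and 33 other MHC, complement and Fc receptor genes lay within 2-fold, including B2m (486 and 411). The leukocyte markers, 3 of 4 found, summed to 1.34 FPKM by day and 1.3 by night, with Mcpt4, a mast cell protease, at 0 in both libraries and Cd3e of T cells at 0.0839 and 0. No leukocyte marker reached the level for comparison, and their part in the Fcer1a difference was not tested. Among interferon and NF-kappaB genes Irak2, a kinase of interleukin receptors (4.54 and 54.4), and Irf8 (4.74 and 22) were higher and Isg15 was lower (25.2 and 10.2). The microglial markers, 6 of 6 found, summed to 49.2 and 43.9. Cytokines and chemokines had 1 of 26 in each direction, Ccrl2 (0.858 and 8.06) and Ccl9 (31.6 and 5.74).

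Cell cycle genes had 9 of 66 compared members higher and 3 lower, where the shares over all compared genes were 4.78% and 2.17%. Several of these do other work: Tp53rk is a tRNA modification kinase (0.589 by day and 13 by night), Plk5 a non-mitotic polo-like kinase (15.6 and 58.7) and Cdc40 a splicing factor (10.9 and 23.4). Cdkn1b, the inhibitor p27, stood at 27.8 and 57.2. The lower ones included the phosphatase Cdc25a (60.9 and 18.8) and Gadd45a. All 12 compared genes of the Bcl2 family and cell death lay within 2-fold.

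Photoreceptor-type genes had 2 of 66 compared members higher (3.03%) and 5 lower (7.58%), against 4.78% and 2.17% over all compared genes. Their median log2 ratio was -0.14, against -0.08 over all. Of 39 compared phototransduction and outer segment genes 1 was higher, the arrestin gene Sag (158 by day and 337 by night), and 4 were lower: the thioredoxin-like gene Nxnl2 (18.2 and 1.49), Rgs9bp, Cabp4 and Gucy2e. The abundant transducin subunits lay within 2-fold, with Gnb3 at 1088 and 1027, Gngt2 at 1053 and 1017 and Gnat2 at 777 and 618. Gngt1, of the same complex in rods, had the second largest gain in FPKM of any gene, from 1128 to 1828 (log2 ratio 0.70). Pdc, which binds transducin, stood at 440 and 235 (log2 ratio -0.91), and Rom1, an outer segment disc protein, at 442 and 313. Cilium genes had 1 of 27 higher, the Bardet-Biedl gene Ttc8 (35.9 and 89.8), and 1 lower, Bbs10 (6.43 and 2.42).

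The day side of the comparison was shallower. Nxnl2 had the lowest log2 ratio, -2.95, followed among named genes by Sgk1 (-2.57) and Sstr3 (-2.54). The Sgk1 difference sat in 1 of its 3 entries, NM_019232 (64.5 by day and 9.71 by night), and the others stood under 0.4 FPKM in both pineal libraries. St8sia3, a sialyltransferase, stood at 60.4 and 17.4. Other lower genes were Ndrg1, a stress and differentiation gene (81.8 and 18.7), Zfp238, a neuronal repressor (47.4 and 16.6), Dyrk2, a kinase (6.75 and 1.76), Elmo1, an engulfment adaptor (23.1 and 8.13), and Tarbp2, a partner of Dicer (14.5 and 4.94). All of these 6 stayed above 1 FPKM by night.

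**Figure D4:**
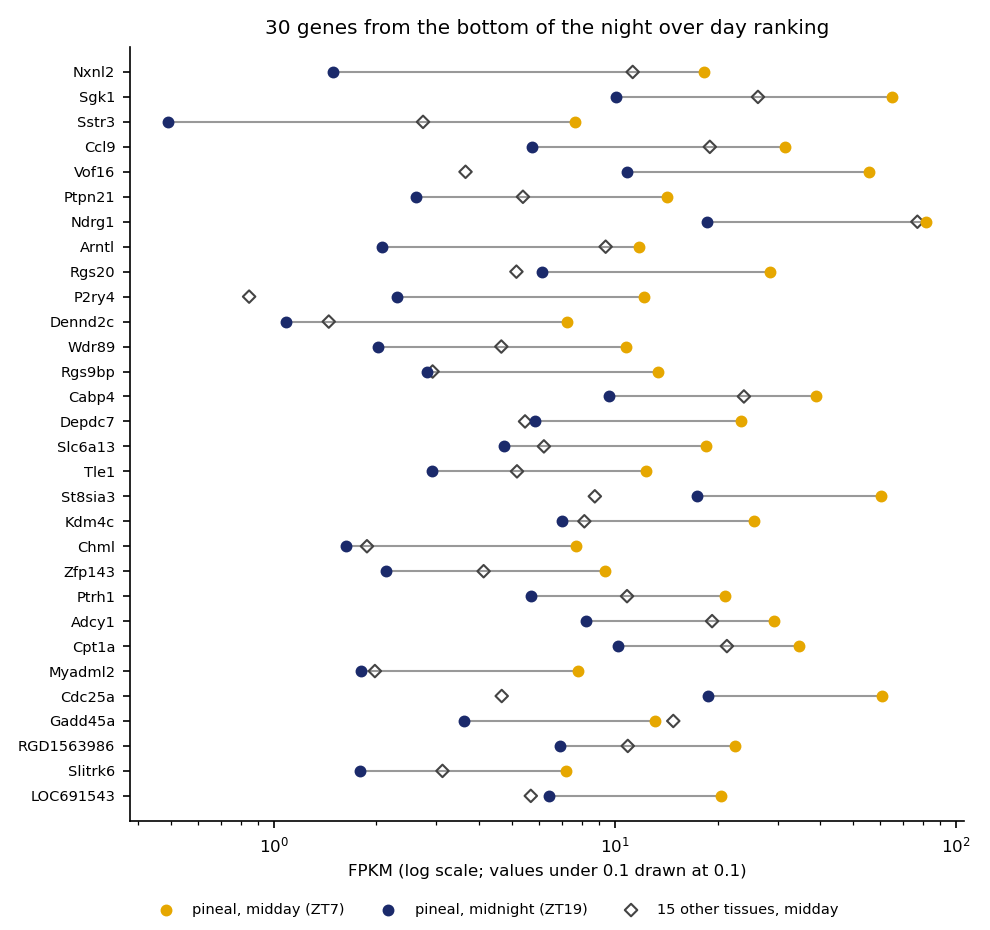
FPKM on a log x axis for 30 named genes from the bottom of the night over day ranking: filled yellow points are the pineal day library, dark blue points the pineal night library and open diamonds the pool of 15 other tissues. Sgk1 stands at 64.8 by day and 10.1 by night; 1 of the 30, Sstr3, falls below 1 FPKM by night.

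Over all 74 families, higher members outnumbered lower ones in 42 and lower ones outnumbered higher in 13, and in 10 no compared member was past 2-fold. Grouped by role, with each gene counted once within a role but in every role that lists it, the share of compared members at least 2-fold higher was 17.0% for cyclic nucleotide and G protein genes, 15.2% for immune and stress genes (a group that holds the fast-responding genes), 10.3% for growth factor pathways and 10.0% for transcription factors. It was 7.83% for membrane transport and 7.14% for kinases and phosphatases, and 4.0%, 3.85% and 3.77% for metabolism, translation and protein quality, and RNA, against 4.78% over all compared genes. Receptors, with 9 compared members, had 11.1% higher and 22.2% lower. The lower share was 12.8% for the cyclic nucleotide and G protein genes and 7.58% for photoreceptor-type genes, against 2.17%.

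In the mixed tissues the median level was 8.0 FPKM for the genes higher by night, 8.14 for those lower and 13.4 over all compared genes. There, 36 of the 332 (10.8%) stood under 1 FPKM, as did 24 of the 119 at least 4-fold higher (20.2%), 6 of the 151 lower (3.97%) and 79 of all 6944 (1.14%). Besides Aanat and Bsx (0.0851), they included Fcer1a (0.461), Ribc2, a cilium protein (0.164), and B3gnt8, a glycosyltransferase (0.283). In the gland these stood at 2.67 by day and 50.3 by night for Ribc2 and at 0.384 and 16.8 for B3gnt8. Nap1l5 ran the other way, at 112 in the mixed tissues and 0.429 and 10.2 in the gland.

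The night library was the shallower, at an estimated 5.29 fragments per kb at 1 FPKM against 8.74 by day, 60.5% of the depth. For a 1 kb transcript at 5 FPKM in both libraries, counting error alone gives a 95% exact binomial interval of the log2 ratio from -0.79 to 0.70. At 100 FPKM the interval is -0.16 to 0.16. These intervals are for ratios of FPKM without the added 1, which shrinks ratios at low levels. For shorter transcripts these ranges are wider, and they do not cover differences between animals. In genes with a mean of at least 100 FPKM, 7.14% were higher and 0.680% lower, and from 5 to 10 FPKM 3.19% and 2.16%. Genes with a mean under 5 passed the filter through 1 library, so their larger shares, 8.52% and 7.02%, follow in part from the filter.

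**Figure D5:**
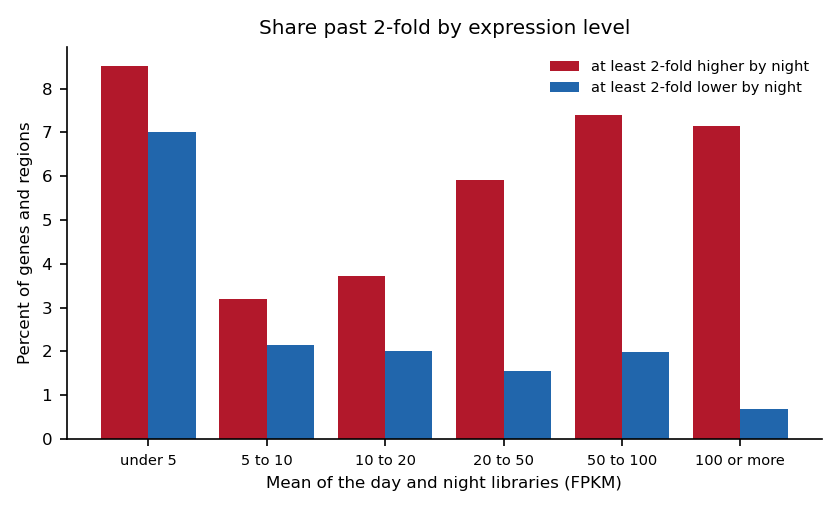
Bars give the percent of compared genes and regions that were at least 2-fold higher (red) or lower (blue) by night, by mean FPKM of the 2 pineal libraries on the x axis. At 100 FPKM or more 7.14% were higher and 0.680% lower.

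The labelled tissue was checked against its markers. All 11 pinealocyte markers were found and above 0 in both pineal libraries, summing to 8835 FPKM by day and 10336 by night against 381 in the mixed tissues. Of the 11, 2 were at least 2-fold higher by night, Aanat and Drd4, and most of the gain in the sum came from Aanat (756 FPKM) and Gngt1 (701), so the sum does not measure the share of pinealocytes. Summed markers of several other cell types were lower by night: astrocytes 126 and 103, mural cells 40.8 and 35.5, endothelium 20.9 and 17.5 with Cldn5 at 0, Schwann cells 14.8 and 12.3, and oligodendrocytes 30.1 and 16.1, of which Cnp (18.2 and 7.93) was past 2-fold. Choroid plexus markers summed to 575 by day and 650 by night, and erythroid markers to 386 and 357. In a whole gland, fewer cells of a type and less RNA per cell cannot be told apart, and the part of cell makeup in the differences above was not tested.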

How the data were processed

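The measurements were made on poly(A) RNA of the pineal gland at midday and at midnight and of a pool of other tissues. Per the labels' protocols, cDNA was made with random primers and 1 lane of paired-end sequencing was spent on a library. The deposited values are FPKM as computed by the authors, per the file headers. TopHat 1.3.1, Cufflinks 1.2.0 and the rn4 build are named in the submitters' processing notes, without settings. FPKM is relative within a library, so a few abundant transcripts lower the rest.

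From the 17089 rows of the table, rows that share a symbol were summed (342 symbols, 802 rows). Ratios are log2((night FPKM + 1)/(day FPKM + 1)) for genes at FPKM 5 or more in at least 1 pineal library, computed with Python 3 and pandas; 2-fold was the threshold. Depth was estimated from the smallest steps of single-exon receptor genes (22 models by day and 4 by night, so the night value is imprecise). The calculation was tested on simulated data with equal depth in both libraries and with changes beyond 2-fold planted in well expressed genes only. That setting is easier than these data, so it does not check 2-fold differences near the filter.

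The comparison, its members and the 74 family lists were chosen with earlier results of these data known. Genes were named if among the 80 highest or 50 lowest ratios, if a family member at least 2-fold apart, or if among the 6 most abundant members of a family. Etnk1, Nptx1, Gli1, Smo, Fos, Jun, Pdc and the cell type markers Cd3e, Cldn5, Cnp and Mcpt4, outside that rule, were named after their values were seen. Unnamed regions, symbols turned into dates and models under 300 bases were not named. Alternatives were other pseudocounts, filters, scalings and ways of joining rows. Starts in coordinates are counted from 1. A few genes that fit this rule are not reported here.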

Additional observations from a re-analysis of the deposited data

How the results depend on the processing

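With 1 library per group, counts and ratios have no replicate error, and no paired analysis was possible because each group holds 1 library. The 332 higher and 151 lower genes became 364 and 218 with a pseudocount of 0.1, 231 and 64 with a pseudocount of 5, 411 and 207 with a filter at FPKM 1 or with none, 208 and 63 with a filter at FPKM 20, 374 and 120 with the median log2 ratio set to 0, 312 and 167 with upper quartile scaling, 334 and 155 with the highest row per symbol, and 306 and 140 without unnamed regions. The higher share of genes past 2-fold was 68.7%, and ranged from 62.5% (pseudocount 0.1) to 78.3% (pseudocount 5). Of the 265 named genes past 2-fold, 190 stayed past 2-fold with a pseudocount of 5, 257 with the median set to 0 and 259 with upper quartile scaling. Among these genes 0 changed sign, but a pseudocount or a filter cannot change a sign. Both scalings were too small to do so for genes past 2-fold. A filter at FPKM 20 left 167 of the named genes, whose ratios a filter cannot alter. The medians of 18 of 72 families moved by more than 0.25 with a filter at FPKM 20. With either scaling 0 of 74 did, which was fixed beforehand, since each scaling moves all ratios by less than 0.25. Of the 148 family counts (higher and lower members of each family), 46 moved by more than 1.5 times, or from or to 0, with a filter at FPKM 20, 36 with a pseudocount of 5, 19 with a filter at FPKM 1 or none, 14 with a pseudocount of 0.1, 10 with the median set to 0, 4 with upper quartile scaling and 2 with the highest row per symbol. The depth of the night library limits low genes most.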
